A study of Arabidopsis thaliana with 9 samples.

Results

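The Arabidopsis xyloglucan endotransglucosylase/hydrolase (XTH) family was described in leaf RNA through the 32 genes that the deposited table lists as XTH followed by a number, out of 32833 genes in all. XTH17, which the table lists as ATXTH17, does not match that rule and was left out, so 32 of the 33 numbered family members were covered. The RNA came from leaves of 9 week old Arabidopsis thaliana plants of the natural accession Shahdara. The first group was a line labelled IAA26 stable, called stable-labelled below, and the second a line labelled IAA26 knockout, called knockout-labelled below. The control was wild type Shahdara. Each group had 3 libraries, called biological replicates in the labels. The labels give neither what stable refers to, nor the lesion or construct of either line, nor how many independent lines or plants stand behind a library, so p-values measure the spread between these libraries. IAA26 is an Aux/IAA protein, a repressor that holds back auxin-responsive genes until auxin triggers its breakdown.

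XTH enzymes work in the primary cell wall, where xyloglucan chains tether cellulose microfibrils. They cut a xyloglucan chain and join the new end to another chain, or to water, and so loosen, rebuild or trim the tethers while a cell grows. In leaves the family is known for its part in blade and vein growth, and some members are induced by touch, auxin, brassinosteroids or shade. The family is often divided by sequence into group I (XTH1 to XTH11), group II (XTH12 to XTH26) and group III (XTH27 to XTH33). XTH31 and XTH32 of group III belong to a branch linked to hydrolase activity.

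All XTH enzymes share a catalytic site with a glutamate, an aspartate and a second glutamate at alternate positions. The coding sequences of 31 of the 32 members held codons for these residues at that spacing by the pattern searched. The 30 bases around the site, read from the TAIR10 reference of the accession Columbia, show how closely related the coding sequences are at the site for the members called below and for the most abundant one. Capitals mark the codons of the 3 catalytic residues.
XTH22: tgggacGAGataGATttcGAGtttttaggg
XTH18: tgggatGAGattGATttcGAGttcttagga
XTH24: tgggatGAGattGATtttGAGttcttgggt
XTH9: cacaacGAAttcGATtttGAGttcttaggg
XTH5: catgatGAGataGACtttGAGtttctaggg
XTH33: cacgacGAGataGACataGAAttgttgggt
Over the whole coding sequence, identity to the nearest relative ran from 58.1% for XTH33 to 89.4% for the pair XTH12 and XTH13. Even so, of the 26 members with any read, 25 drew all their exon reads from unique positions, and XTH15 drew 94.6%. Shahdara alleles can differ from these reference sequences.

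Exon reads per library numbered 28585976 to 45346301, and 19409 genes had enough reads to be tested. Levels are given as RPKM, exon reads scaled to exon length and library depth. Fold changes are log2 values from edgeR's quasi-likelihood test with their standard error (SE), positive where the group named first is higher, and a gene counts as called where its p, adjusted by Benjamini and Hochberg across all tested genes, is under 0.05. IAA26 itself stood at 9.81 to 12.7 RPKM in stable-labelled, 12.4 to 17.2 RPKM in knockout-labelled and 17.5 to 20.3 RPKM in wild-type libraries, so the transcript was present in all 3 groups. Leaf markers were high throughout, with the small subunit of Rubisco, RBCS1A, at 2170 RPKM or more. Along the leading principal component, with 44.3% of the variance, the wild-type libraries were at -9.05, -0.456 and -34.0. Stable-labelled 1 stood apart from the other libraries of its group along it, at -3.01 against 87.8 and 71.5, and lay within the wild-type range. Knockout-labelled 3 did so in its group, at -4.58 against -56.7 and -51.5, and 2 of 4 flower markers were far higher in it than elsewhere, AP3 (4.46 RPKM, against 0.112 to 0.323 RPKM) and PI (8.44 RPKM, against 0.336 to 0.952 RPKM). The other flower markers differed less, with SEP3 at 8 RPKM in it, against 1 to 5.62 RPKM elsewhere, the highest of those in stable-labelled 1, and AG at 2.51 RPKM, against 1.03 to 2.08 RPKM elsewhere. In such whole-leaf RNA, fewer cells of a type and less RNA per cell cannot be told apart.

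**Figure D1:**
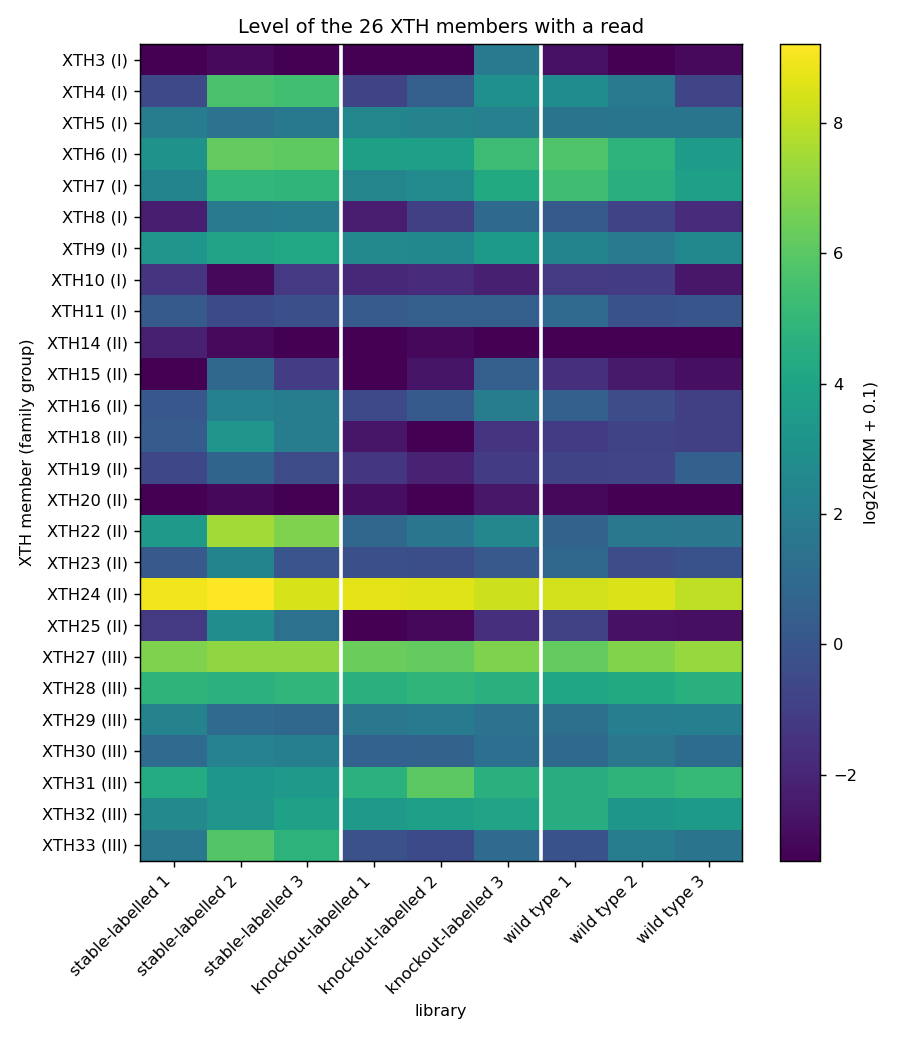
Levels of the 26 XTH members with a read (rows, with the family group in brackets) in the 9 libraries (columns), coloured by log2(RPKM + 0.1). XTH24 and XTH27 are bright in every library, while XTH22, XTH33, XTH18 and XTH25 are brightest in stable-labelled 2 and 3.

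XTH24 and XTH27 made up most of the family's RNA. XTH24 (AT4G30270, chromosome 4, 14819192 to 14820595), also known as MERISTEM-5, had 490, 593 and 354 RPKM in stable-labelled, 419, 391 and 307 RPKM in knockout-labelled and 332, 366 and 259 RPKM in wild-type leaves. XTH27 (AT2G01850, chromosome 2, 385171 to 387478), known for a role in the maturation of tracheary elements in leaf veins, had 112, 139 and 142 RPKM in stable-labelled, 81.4, 73 and 109 RPKM in knockout-labelled and 74.2, 116 and 157 RPKM in wild-type leaves. The groups overlapped for both genes in at least 1 comparison. XTH24 and XTH27 together took 56.7% to 84.7% of the summed RPKM of the family in stable-labelled, 70.5% to 83.2% in knockout-labelled and 68.6% to 77.9% in wild-type libraries. The summed RPKM of the family was 711, 1220 and 874 in stable-labelled, 602, 618 and 589 in knockout-labelled and 593, 619 and 536 in wild-type libraries. Without XTH24 and XTH27 it was 109, 488 and 379 in stable-labelled, 101, 155 and 174 in knockout-labelled and 186, 137 and 120 in wild-type libraries, so that stable-labelled 2 and 3 were above all other libraries and stable-labelled 1 was below the lowest wild-type library.

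By mean RPKM over all libraries the next members were XTH22, XTH6, XTH31 and XTH28, at 34.8, 34.6, 26.9 and 24.9 RPKM. The place of XTH22 came from the stable-labelled line alone, since it averaged 98.6 ± 83.0 RPKM there, 3.36 ± 1.94 RPKM in the knockout-labelled line and 2.53 ± 0.922 RPKM in the wild type (SD, n = 3 each). In the wild type the order after XTH24 and XTH27 was XTH6 at 31.3 ± 21.8, XTH31 at 28.1 ± 5.80, XTH7 at 26.3 ± 14.2 and XTH28 at 20.4 ± 4.27 RPKM (SD, n = 3). The ranges of these 4 genes overlapped, though XTH31 was above XTH28 within each of the 3 libraries.

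At the other end, XTH1, XTH2, XTH12, XTH13, XTH21 and XTH26 had 0 reads in all 9 libraries. A count of 0 allows up to 3 reads, which in the shallowest library corresponds to 0.0819 to 0.111 RPKM for these 6 genes, by counting error alone. XTH12, XTH13 and XTH26 are known as root genes. The root hair markers COBL9, EXPA7 and EXPA18 were also at or near 0, at no more than 0.0353 RPKM summed in any library. XTH14 and XTH20 had at most 4 reads in a library. XTH3 (AT3G25050, chromosome 3, 9126851 to 9128416) had 150 reads (3.63 RPKM) in knockout-labelled 3 and 0 to 2 reads in each of the other 8 libraries. That is the library with the high AP3 and PI, whose part in the XTH3 reads was not tested. These 3 genes did not pass the filter on low counts, which left 23 members tested.

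The stable-labelled line was compared with the wild type to ask how the leaf RNA of that line differs. XTH22, XTH18 and XTH9 rose, XTH22 by the widest margin of any member, and no tested member was called lower. These 3 calls among 23 members stand against 8.87% of all genes tested called in either direction and 5.09% called higher. The median log2 fold change of the 23 members was 0.72 and 17 were above 0, against a median of 0.01 and 51% above 0 over all genes tested. Among members at an unadjusted p under 0.05, 8 were higher, against 14.4% of all genes, and 1 was lower.

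XTH22 (AT5G57560, chromosome 5, 23307006 to 23308680), better known as TOUCH4 or TCH4, encodes an enzyme whose transcript is induced by touch, darkness, temperature shocks, auxin and brassinosteroids in Arabidopsis. It had 10.8, 176 and 109 RPKM in stable-labelled libraries, 1.67, 2.93 and 5.48 RPKM in knockout-labelled libraries and 1.47, 3.14 and 2.99 RPKM in wild-type libraries. All 3 stable-labelled libraries were above all others, though stable-labelled 1 was far below stable-labelled 2 and 3. The log2 fold change of stable-labelled over wild type was 5.42 (SE 1.02, adjusted p = 0.0178), or 42.9-fold in the fit. Stable-labelled 1 alone was 3.46 times the highest wild-type library. Leaving out stable-labelled 1 gave 5.96 (adjusted p = 0.00161). Leaving out stable-labelled 2 gave 4.65 (adjusted p = 0.0536). Leaving out any 1 wild-type library gave 5.17 to 5.61, with an adjusted p of 0.0509 to 0.0720.

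XTH18 (AT4G30280, chromosome 4, 14825757 to 14827211) is a group II enzyme known from growing roots. It had 1.16, 9.05 and 3.81 RPKM in stable-labelled, 0.0671, 0 and 0.272 RPKM in knockout-labelled and 0.366, 0.495 and 0.411 RPKM in wild-type libraries. The stable-labelled libraries lay above both other groups without overlap. XTH18 rose by 3.59 on the log2 scale against the wild type (SE 0.93, adjusted p = 0.0498), a call that was lost in 11 of the 15 alternative settings. Without stable-labelled 2 it gave 2.61 (adjusted p = 0.188).

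XTH9 (AT4G03210, chromosome 4, 1415617 to 1417444) is known for growth of the shoot apex and the stem. It had 9.28, 15.7 and 18.5 RPKM in stable-labelled, 5.83, 5.74 and 11.4 RPKM in knockout-labelled and 4.98, 3.32 and 5.67 RPKM in wild-type libraries. The stable-labelled and the wild-type values did not overlap, and stable-labelled 1 was closer to the rest of its group for this gene than for XTH22. The log2 fold change was 1.74 (SE 0.40, adjusted p = 0.0337), and the adjusted p ran from 0.00027 to 0.11 over the alternatives, 8 of 15 of which kept the call.

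**Figure D2:**
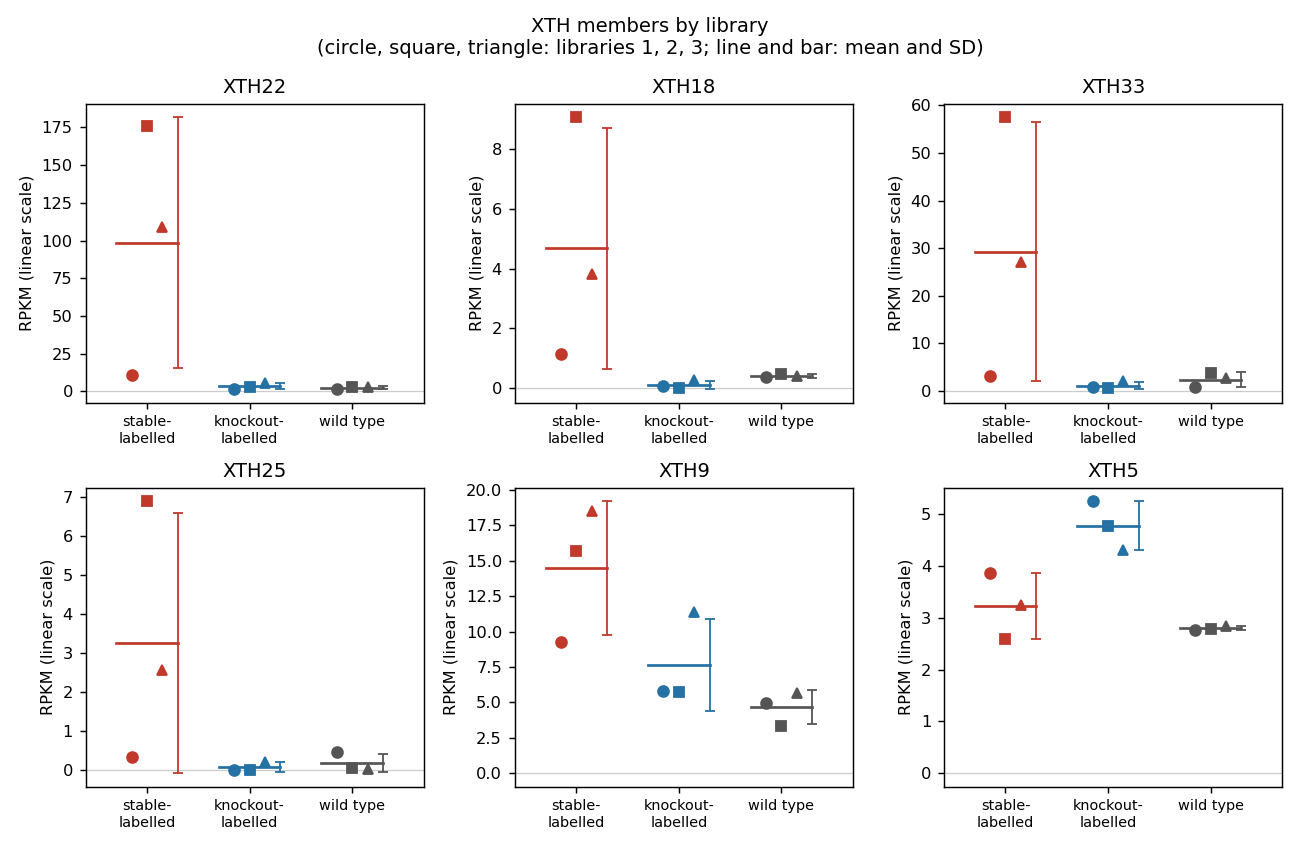
RPKM (linear axes) of XTH22, XTH18, XTH33, XTH25, XTH9 and XTH5 in each library, with the group mean as a line and its SD as a bar. For XTH22 all 3 stable-labelled points, at 10.8 to 176 RPKM, lie above the knockout-labelled and wild-type points, which reach 5.48 RPKM at most, and for XTH5 the knockout-labelled points lie above the others.

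XTH28, XTH33 and XTH25 came next by p-value without being called. XTH28 (AT1G14720), known for the elongation of stamen filaments, had 28.6, 25.3 and 30 RPKM in stable-labelled and 16.6, 19.6 and 25.1 RPKM in wild-type libraries (log2 0.53, SE 0.14, adjusted p = 0.0549). XTH33 (AT1G10550, chromosome 1, 3479066 to 3481041), which is anchored in the plasma membrane, had 3.19, 57.5 and 27.1 RPKM in stable-labelled libraries and 0.787, 3.7 and 2.7 RPKM in wild-type libraries, with stable-labelled 1 inside the wild-type range (log2 3.75, SE 1.03, adjusted p = 0.0601, and 2.74 without stable-labelled 2). XTH25 (AT5G57550) had 0.331, 6.89 and 2.57 RPKM in stable-labelled and 0.459, 0.0528 and 0.0418 RPKM in wild-type libraries (log2 4.32, SE 1.38, adjusted p = 0.0892, and 3.08 to 6.18 as single libraries were left out), and again stable-labelled 1 was within the wild-type range.

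How many members were called here depended on the fit and on most of the libraries. Without stable-labelled 1, which leaves 2 libraries in that group, 7 members were called (XTH9, XTH18, XTH22, XTH25, XTH28, XTH30 and XTH33), all higher, while 19.2% of all genes tested were called. The count was 0 without wild type 1, wild type 2 or stable-labelled 2, with 3.78%, 6.62% and 2.97% of all genes called. It was 1 without wild type 3 (XTH28), stable-labelled 3 (XTH22) or knockout-labelled 1 (XTH22), with 3.74%, 4.32% and 5.09% of all genes called. DESeq2 called 7 members, all higher, against 17.6% of all genes. A fit of the stable-labelled and wild-type libraries alone called 0 members and 3.23% of all genes, with XTH22 at an adjusted p of 0.0575.

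The knockout-labelled line was set against the wild type in the same way. XTH5 rose, and it was the 1 member called, against 1.66% of all genes tested called in either direction and 0.927% called higher. The median of the 23 members was -0.27, with 9 above 0 and 14 below, against a median of 0.00 and 50.5% above 0 over all genes. That side was not stable, since without wild type 1 the median was 0.13 and 15 members were above 0. XTH5 (AT5G13870, chromosome 5, 4474922 to 4477090), a group I member close to XTH4, had 5.25, 4.77 and 4.3 RPKM in knockout-labelled and 2.76, 2.79 and 2.84 RPKM in wild-type libraries. The groups did not overlap, and the wild-type libraries lay close together. The log2 fold change was 0.66 (SE 0.13, adjusted p = 0.0458). It stayed between 0.58 and 0.77 over the alternatives, but the adjusted p was above 0.05 in 10 of 15, among them those without any 1 wild-type or knockout-labelled library or without stable-labelled 3.

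XTH19 and XTH18, neighbours on chromosome 4, were low in knockout-labelled leaves without being called. XTH19 (AT4G30290) had 0.296, 0.136 and 0.376 RPKM in knockout-labelled and 0.488, 0.516 and 1.32 RPKM in wild-type libraries, with no overlap (log2 -1.61, SE 0.64, adjusted p = 0.212). XTH18 gave -1.98 (SE 1.07, adjusted p = 0.35), with 0 to 13 reads per knockout-labelled library and 17 to 30 reads per wild-type library. Without knockout-labelled 3 it gave -3.74, and without knockout-labelled 2 it gave -1.38. XTH19 gave -0.997 without wild type 3. XTH7 gave -1.44 (SE 0.79, adjusted p = 0.36), XTH28 0.25 (SE 0.14, adjusted p = 0.368) and XTH27 -0.51 (SE 0.29, adjusted p = 0.374), each with overlapping groups. XTH7 gave -2.32 without knockout-labelled 3 and -0.94 without wild type 1. XTH22 gave 0.31 (SE 0.89, adjusted p = 0.886) with overlapping groups, and its sign turned to -0.28 without knockout-labelled 3.

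The stable-labelled line was also compared directly with the knockout-labelled line. XTH18, XTH22 and XTH33 rose in the stable-labelled line and no tested member was called lower. These 3 of 23 members stand against 6.96% of all genes called in either direction and 4.87% called higher. The median of the members was 1.12 and 19 were above 0, against a median of -0.00 and 49.9% above 0 over all genes. With library totals in place of TMM scaling, the median over all genes moved to -0.19 and that of the members to 0.92, with 18 above 0. XTH18 gave 5.57 (SE 1.07, adjusted p = 0.0293), with 45 to 391 reads per stable-labelled library and 0 to 13 reads per knockout-labelled library. XTH22 gave 5.11 (SE 1.01, adjusted p = 0.0307), or 34.7-fold. Leaving out stable-labelled 2 gave 4.58 for XTH18 and 4.34 for XTH22, and leaving out knockout-labelled 3 gave 7.33 for XTH18 and 5.71 for XTH22. XTH18 gave 4.96 without knockout-labelled 2.

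XTH33 had 3.19, 57.5 and 27.1 RPKM in stable-labelled libraries, against 0.771, 0.599 and 2.01 RPKM in knockout-labelled libraries. Here stable-labelled 1 lay above the knockout-labelled range, unlike against the wild type, and the log2 fold change was 4.93 (SE 1.11, adjusted p = 0.0402). It was 3.92 without stable-labelled 2 and 5.70 without knockout-labelled 3. XTH25 had 0.331, 6.89 and 2.57 RPKM in stable-labelled and 0, 0.0218 and 0.223 RPKM in knockout-labelled libraries, and was not called (log2 5.5, SE 1.51, adjusted p = 0.0628, and 4.26 to 8.11 as single libraries were left out). All 3 calls were lost without stable-labelled 2, stable-labelled 3, knockout-labelled 1 or knockout-labelled 2, each left out alone, with 0.802%, 2.49%, 0.0152% and 0.0408% of all genes called, and in a fit of these libraries alone, which called 3.67% of all genes. The adjusted p of XTH22 and of XTH33 was also above 0.05 without wild type 3, and that of XTH33 without wild type 2 or knockout-labelled 3 as well.

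XTH31 ran the other way. XTH31 (AT3G44990, chromosome 3, 16446935 to 16448844), an enzyme with hydrolase activity known from aluminium-exposed roots, had 20.6, 9.48 and 10.4 RPKM in stable-labelled, 25.3, 67.4 and 24.8 RPKM in knockout-labelled and 22.2, 28.3 and 33.8 RPKM in wild-type libraries. The stable-labelled libraries lay below both other groups without overlap. Against the wild type XTH31 was not called (adjusted p = 0.161). The difference from the knockout-labelled line was -1.35 (SE 0.41, adjusted p = 0.0804) and was not called. Without knockout-labelled 2, its highest library, it was -0.75. XTH30, of group III, gave 1.27 (SE 0.39, adjusted p = 0.0804). Without stable-labelled 1, 10 members were called, 8 higher (XTH4, XTH9, XTH18, XTH19, XTH22, XTH25, XTH30 and XTH33) and 2 lower (XTH5 and XTH31), while 26.6% of all genes were called.

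**Figure D3:**
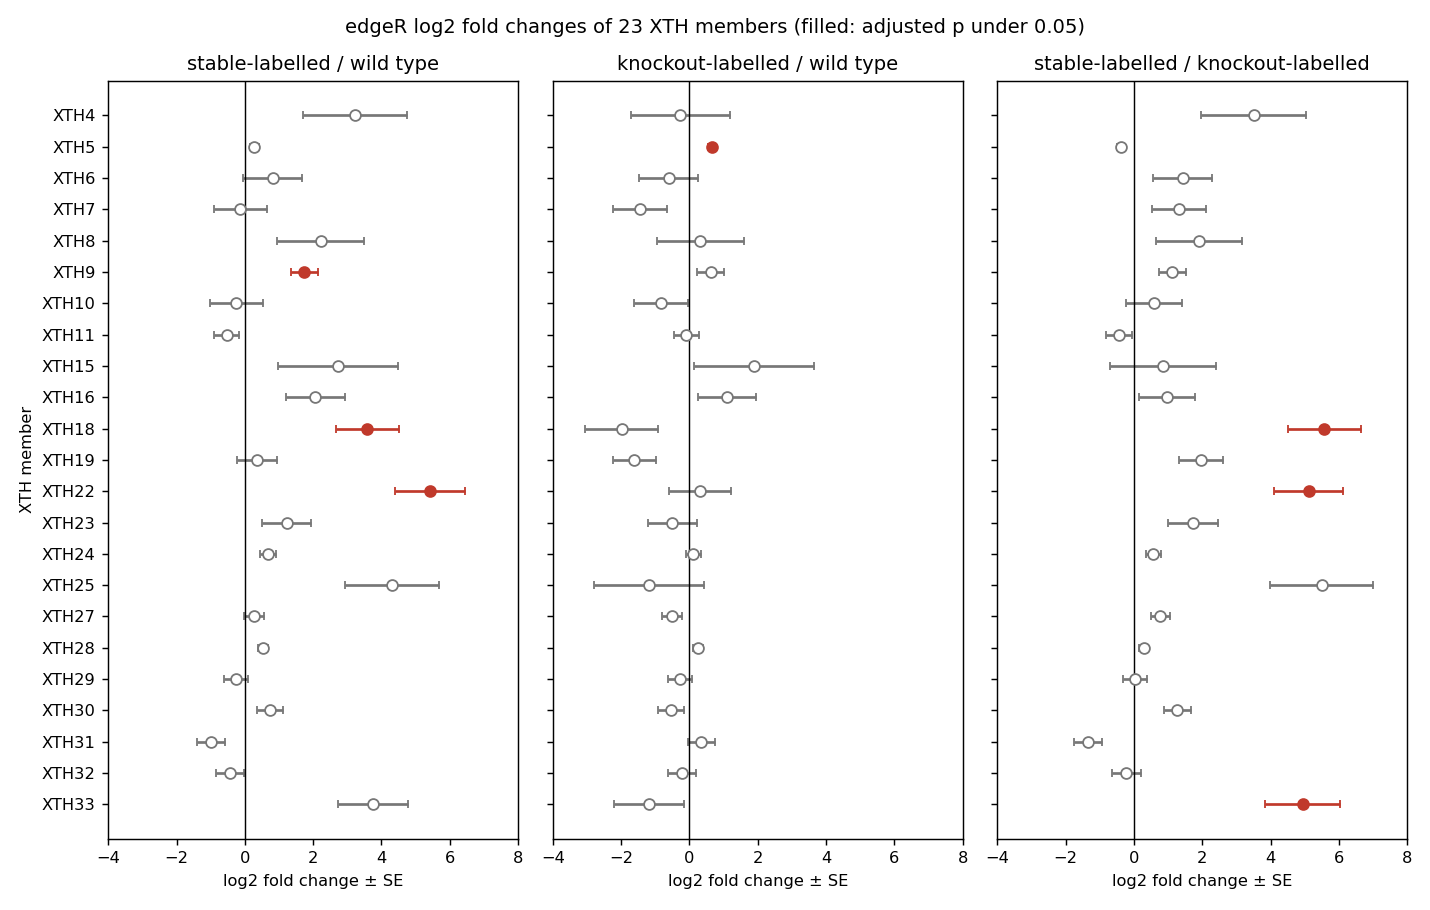
Log2 fold changes with their SE for the 23 tested members (rows) in the 3 comparisons (panels), filled where the adjusted p was under 0.05. XTH22 and XTH18 are filled in both panels with the stable-labelled line on top, XTH9 and XTH33 in 1 of them each, and XTH5 in the panel of knockout-labelled over wild type.

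The called members came from all 3 family groups. In stable-labelled against wild type the 8 tested of 14 listed members of group II had a median of 2.39, all above 0. The 8 of group I had a median of 0.55 with 5 above 0, and the 7 of group III a median of 0.27 with 4 above 0. Over all genes tested 51% were above 0. In group II, XTH25 had 12 to 279 reads per stable-labelled, 0 to 10 reads per knockout-labelled and 2 to 20 reads per wild-type library. It therefore passed the filter on low counts mostly through the stable-labelled libraries, which favours a value above 0. XTH15, also of group II, had 0 to 71 reads per stable-labelled, 0 to 59 reads per knockout-labelled and 2 to 10 reads per wild-type library. Its highest counts were in stable-labelled 2, knockout-labelled 3 and stable-labelled 3, so the same limit holds for it against the wild type. In stable-labelled against knockout-labelled the medians were 1.85 for group II, 1.22 for group I and 0.28 for group III. In knockout-labelled against wild type they were -0.20 for group II, -0.18 for group I and -0.28 for group III. The stable-labelled line, the knockout-labelled line and the wild type each enter 2 of these comparisons, so the comparisons are not independent of each other.

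Several members varied widely within each group. XTH4 (AT2G06850), an enzyme of growing tissues and of secondary wall formation, had 0.586, 48.9 and 43.1 RPKM in stable-labelled, 0.49, 1.31 and 7.69 RPKM in knockout-labelled and 6.73, 3.58 and 0.521 RPKM in wild-type libraries. Its highest stable-labelled library was 83.4 times its lowest, its highest knockout-labelled library 15.7 times and its highest wild-type library 12.9 times. XTH8 (AT1G11545) had 0.107, 3.65 and 3.81 RPKM in stable-labelled, 0.0928, 0.425 and 1.85 RPKM in knockout-labelled and 1.09, 0.497 and 0.203 RPKM in wild-type libraries. For both genes stable-labelled 1, knockout-labelled 1 and wild type 3 were the lowest of their groups.

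XTH6 (AT5G65730) showed the same libraries high, with 8.53, 72.9 and 69.8 RPKM in stable-labelled, 14, 13.3 and 38.6 RPKM in knockout-labelled and 54.8, 27.7 and 11.5 RPKM in wild-type libraries. XTH7 (AT4G37800) had 4.92, 31.3 and 29.7 RPKM in stable-labelled, 5.04, 6.58 and 19.3 RPKM in knockout-labelled and 41.5, 24.1 and 13.4 RPKM in wild-type libraries. XTH16 (AT3G23730), known with XTH15 from shade-induced petiole growth, had 0.94, 4.5 and 3.94 RPKM in stable-labelled, 0.581, 1.08 and 3.87 RPKM in knockout-labelled and 1.34, 0.686 and 0.427 RPKM in wild-type libraries. In these 3 genes as well as XTH4 and XTH8, stable-labelled 1 was the lowest of its group, knockout-labelled 3 the highest of its group and wild type 1 the highest of its group. Over all 23 tested members stable-labelled 1 was the lowest of its group for 15, and knockout-labelled 3 the highest of its group for 16. The same shares over all tested genes were not taken. Both libraries also stood apart from their groups along the leading principal component, so these counts cannot be read as a trait of the family. XTH4, XTH6, XTH7, XTH8, XTH15 and XTH16 were picked for this description after their values were seen, and none was called in any of the 3 comparisons.

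The remaining tested members, XTH10, XTH11, XTH23, XTH29 and XTH32, were not called in any comparison. XTH32, from the branch of XTH31, had 5.84, 9.21 and 14.5 RPKM in stable-labelled, 10.4, 13.6 and 16 RPKM in knockout-labelled and 22.1, 9.73 and 11.2 RPKM in wild-type libraries, with overlap among all groups. XTH23, the nearest relative of XTH22 with 80.8% of coding bases in common, had 1.05, 4.96 and 0.904 RPKM in stable-labelled, 0.74, 0.697 and 1.02 RPKM in knockout-labelled and 1.78, 0.668 and 0.793 RPKM in wild-type libraries, and only stable-labelled 2 stood out. XTH29 ranged from 1.78 to 4.77 RPKM over the 9 libraries, XTH11 from 0.606 to 1.97 RPKM and XTH10 from 0.0215 to 0.368 RPKM. XTH15 reached 1.72 RPKM in stable-labelled 2 and 1.29 RPKM in knockout-labelled 3, and was at 0.378 RPKM or less in each of the other libraries.

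The xylem and mesophyll sums were both the lowest of their group in stable-labelled 1, knockout-labelled 1 and wild type 3, as XTH4 and XTH8 were. Single mesophyll markers did not all follow their sum. The sums of dividing-cell and flower markers were lowest in neither stable-labelled 1 nor wild type 3. In knockout-labelled 1 the dividing-cell sum was the lowest of its group, and the flower sum was not. The summed RPKM of the 5 xylem markers XCP1, XCP2, CESA4, CESA7 and CESA8 was 3.30, 13.1 and 16.3 in stable-labelled, 2.50, 3.34 and 9.66 in knockout-labelled and 9.32, 9.01 and 4.05 in wild-type libraries, with none of them at 0. The 5 mesophyll markers summed to 10239, 19932 and 19432 RPKM in stable-labelled, 11391, 11452 and 15492 RPKM in knockout-labelled and 15258, 15103 and 14055 RPKM in wild-type libraries. Of these, RCA, which encodes Rubisco activase, fell in stable-labelled against wild-type leaves (log2 -0.69, adjusted p = 0.0498), and no other marker of leaf, xylem, flower or dividing cells was called in any comparison. Within the wild type, and between knockout-labelled 1 and 2, the mesophyll sum varied little. In wild type 3, RBCS1A, RCA and GAPB were the highest of their group, at 3470, 7240 and 570 RPKM. CA1 and LHCB1.3 were the lowest there, at 99.1 and 2680 RPKM. RCA was also the highest of its group in knockout-labelled 1, at 5610 RPKM, and was not the lowest in stable-labelled 1. The other mesophyll markers were the lowest of their group in both of those libraries. The 3 markers of dividing cells summed to 2.37, 1.63 and 2.17 RPKM in stable-labelled, 1.87, 2.32 and 3.32 RPKM in knockout-labelled and 1.84, 1.83 and 2.75 RPKM in wild-type libraries. The 4 flower markers summed to 8.75, 4.20 and 3.73 RPKM in stable-labelled, 6.16, 5.33 and 23.4 RPKM in knockout-labelled and 3.43, 3.43 and 5.36 RPKM in wild-type libraries, with stable-labelled 1 the highest of its group in both sums. Their part in the XTH values was not tested.

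**Figure D4:**
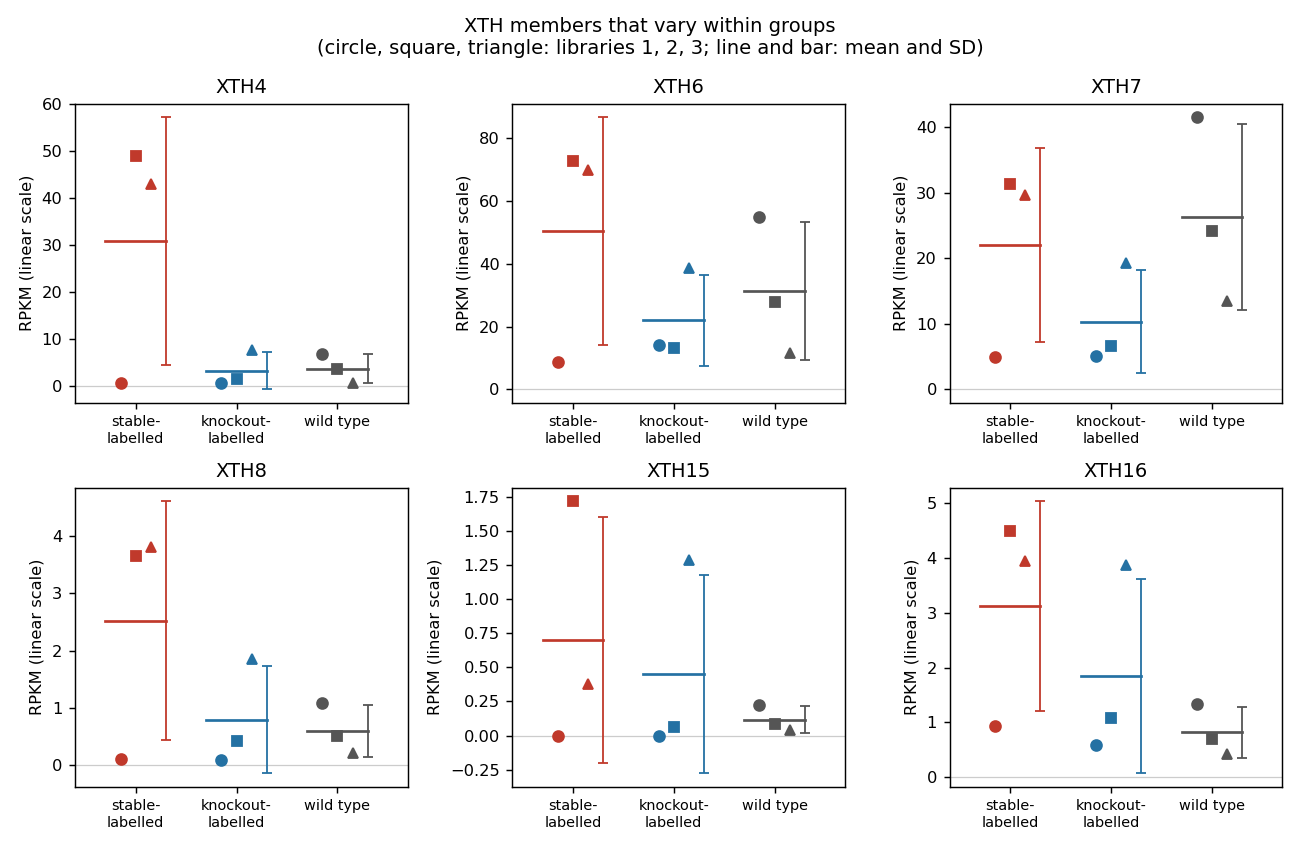
RPKM (linear axes) of XTH4, XTH6, XTH7, XTH8, XTH15 and XTH16 in each library, with the group mean as a line and its SD as a bar. In each panel stable-labelled 1 lies below stable-labelled 2 and 3, and knockout-labelled 3 lies above knockout-labelled 1 and 2.

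Several members lie close together in the genome, and the levels of such neighbours were alike in some clusters and far apart in others. XTH1 and XTH2, next to each other on chromosome 4, both had 0 reads. On chromosome 5, XTH12, XTH13, XTH25 and XTH22 lie on the minus strand between 23300321 and 23308680. XTH12 and XTH13 had no read in any library, while XTH25 reached 6.89 RPKM and XTH22 176 RPKM in stable-labelled 2. On chromosome 4, XTH24, XTH18 and XTH19 lie on the minus strand between 14819192 and 14830224. XTH24 was the most abundant member there, at 259 RPKM or more in every library, beside XTH18 at 9.05 RPKM or less and XTH19 at 1.55 RPKM or less. XTH18 and XTH19 share 87.6% of their coding bases, yet all reads of both were unique.

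The 250 bases upstream of the annotated gene start are shown for the 5 members called in any comparison, from TAIR10 and 5′ to 3′ on the strand of the gene. Capitals mark matches, on either strand, to the letters searched: the G-box CACGTG, the auxin response element TGTCTC, the brassinosteroid response elements CGTGTG and CGTGCG, the evening element AAATATCT, the CAMTA core CGCGTT, the CRT/DRE core CCGAC and the TATA box core TATAAA.
XTH22, chr5:23308681-23308930, minus strand: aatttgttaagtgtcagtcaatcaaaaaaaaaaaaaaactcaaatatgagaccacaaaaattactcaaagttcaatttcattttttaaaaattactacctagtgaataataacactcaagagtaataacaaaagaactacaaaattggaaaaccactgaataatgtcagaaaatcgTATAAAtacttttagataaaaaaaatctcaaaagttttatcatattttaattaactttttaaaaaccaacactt
XTH18, chr4:14827212-14827461, minus strand: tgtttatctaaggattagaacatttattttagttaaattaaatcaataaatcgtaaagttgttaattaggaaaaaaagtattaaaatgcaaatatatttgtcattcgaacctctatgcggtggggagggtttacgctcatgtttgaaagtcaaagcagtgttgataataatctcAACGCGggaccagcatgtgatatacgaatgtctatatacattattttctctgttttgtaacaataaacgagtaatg
XTH33, chr1:3481042-3481291, minus strand: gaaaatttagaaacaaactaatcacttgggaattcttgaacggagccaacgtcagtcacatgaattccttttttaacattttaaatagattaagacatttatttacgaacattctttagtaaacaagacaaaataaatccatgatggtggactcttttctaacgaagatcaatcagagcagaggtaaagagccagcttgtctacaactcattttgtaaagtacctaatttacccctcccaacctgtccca
XTH9, chr4:1415367-1415616, plus strand: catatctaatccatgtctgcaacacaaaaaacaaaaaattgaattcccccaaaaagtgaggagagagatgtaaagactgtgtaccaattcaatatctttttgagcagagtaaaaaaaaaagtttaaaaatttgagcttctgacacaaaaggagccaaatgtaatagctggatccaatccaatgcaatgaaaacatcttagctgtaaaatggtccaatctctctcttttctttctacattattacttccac
XTH5, chr5:4477091-4477340, minus strand: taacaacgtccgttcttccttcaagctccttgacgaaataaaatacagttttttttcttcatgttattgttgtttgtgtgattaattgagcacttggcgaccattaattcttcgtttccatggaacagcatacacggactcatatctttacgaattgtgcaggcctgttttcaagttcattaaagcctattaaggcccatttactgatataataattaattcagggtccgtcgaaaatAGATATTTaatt
XTH22 holds the TATA box core from -74 to -69, XTH18 the CAMTA core from -76 to -71 and XTH5 the evening element from -12 to -5, counted from -1 just before the gene start. XTH9 and XTH33 hold none of these letters upstream. In windows of 300 bases that run 50 bases past the gene start, the evening element was in 4 of 32 members and 5.65% of 27443 protein-coding genes, and the CAMTA core in 3 of 32 and 3.4%. The brassinosteroid response elements were in 4 of 32 members (XTH2, XTH8, XTH23 and XTH25) and 8.19% of all windows. The auxin response element was in 3 of 32 (XTH3, XTH6 and XTH21) and 14.2%, the CRT/DRE core in 2 of 32 and 15%, the G-box in 0 of 32 and 7.68%, and the TATA box core in 22 of 32 and 52.1%. A match of letters is not a binding site.

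The enzymes that make and trim xyloglucan were followed beside the XTH family. Of 19 such genes 18 were tested. In stable-labelled against wild type BGAL10, XXT2 and XXT1 rose and 0 of the 18 fell, against 5.09% of all genes called higher and 8.87% in either direction. The list median was 0.33, against 0.01 over all genes. BGAL10, a galactosidase that removes galactose from xyloglucan side chains, had 26.7, 36.6 and 37.4 RPKM in stable-labelled, 15.7, 13.3 and 23.3 RPKM in knockout-labelled and 6.97, 11.1 and 9.02 RPKM in wild-type libraries (log2 1.99 for stable-labelled over wild type, adjusted p = 0.00671). All stable-labelled libraries lay above the others. XXT1 and XXT2 encode the xylosyltransferases that place the first side-chain sugar on the glucan backbone. XXT1 had 6.56, 29.1 and 17.8 RPKM in stable-labelled, 2.81, 3.98 and 4.63 RPKM in knockout-labelled and 3.52, 4.73 and 2.69 RPKM in wild-type libraries (log2 2.41 for stable-labelled over wild type, adjusted p = 0.0303), and stable-labelled 1 was again the lowest of its group. XXT2 gave 0.52 (adjusted p = 0.0208).

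In stable-labelled against knockout-labelled XXT2, XXT5, XXT1, MUR3 and BGAL10 rose and 0 of the 18 fell, against 4.87% of all genes called higher and 6.96% in either direction. The list median was 0.42, against -0.00 over all genes. XXT1 gave 2.46 (adjusted p = 0.0376), XXT2 0.50 (adjusted p = 0.0317), XXT5, another xylosyltransferase, 0.84 (adjusted p = 0.0351), MUR3, a galactosyltransferase, 0.42 (adjusted p = 0.0402), and BGAL10 1.14 (adjusted p = 0.0477). Over all genes the calls between these 2 lines fell from 1351 to 3 without knockout-labelled 1, 8 without knockout-labelled 2 and 158 without stable-labelled 2. Whether the calls of this list held without these libraries was not followed. In knockout-labelled against wild type edgeR called 0 of 18, with 1 at an unadjusted p under 0.05, and the list median was -0.08. That gene was BGAL10, at 0.85 (adjusted p = 0.15).

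The touch genes named with XTH22 were called in 1 of the 3 comparisons. CML12, known as TCH3 and encoding a calmodulin-like calcium sensor, had 167, 266 and 178 RPKM in stable-labelled, 9.56, 16.6 and 20 RPKM in knockout-labelled and 20.4, 139 and 38.4 RPKM in wild-type libraries. It rose in stable-labelled against knockout-labelled leaves (log2 3.94, adjusted p = 0.0265) and was not called in stable-labelled against wild type (1.73, adjusted p = 0.135), where wild type 2 was high. In knockout-labelled against wild type it gave -2.20 (adjusted p = 0.129). XTH22 was not high in wild type 2, at 3.14 RPKM. CML24 (TCH2) had 29.7, 43.4 and 30.3 RPKM in stable-labelled, 10.1, 20.1 and 14.6 RPKM in knockout-labelled and 6.8, 20.4 and 19.8 RPKM in wild-type libraries, and CAM2 (TCH1) ranged from 23.3 to 43.8 RPKM in stable-labelled, 12.6 to 22 RPKM in knockout-labelled and 14.2 to 33.9 RPKM in wild-type libraries, and neither was called in any comparison. The smallest p of the 3 touch genes in stable-labelled against wild type was that of CML24, at 1.23 (adjusted p = 0.106).

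Of 13 brassinosteroid genes 12 were tested. In stable-labelled against wild type 1 was called higher and 1 lower, against 8.87% of all genes called in either direction. In knockout-labelled against wild type 1 was called lower and 0 higher, against 1.66% of all genes. BES1, a transcription factor of the brassinosteroid response, had 43.9, 48.2 and 47.8 RPKM in stable-labelled, 72.3, 62.1 and 70.6 RPKM in knockout-labelled and 154, 107 and 107 RPKM in wild-type libraries, so that the groups did not overlap. It fell in stable-labelled (log2 -1.31, adjusted p = 0.00499) and in knockout-labelled leaves (-0.96, adjusted p = 0.0412), both against the same wild-type libraries. BRI1, the brassinosteroid receptor, rose in stable-labelled against wild-type leaves (0.30, adjusted p = 0.0455). Its values were 32.4 to 35 RPKM in stable-labelled, 37.2 to 38.8 RPKM in knockout-labelled and 28.5 to 29.9 RPKM in wild-type libraries. Both lines thus lay above the wild type, though BRI1 was not called in knockout-labelled against wild type (0.26, adjusted p = 0.117). Stable-labelled over knockout-labelled gave 0.04. In knockout-labelled against wild type ROT3 gave -0.90 (adjusted p = 0.0811), DWF4 0.48 (adjusted p = 0.189) and DET2 0.30 (adjusted p = 0.203), none of them called. In stable-labelled against knockout-labelled edgeR called 0 of the 12, against 6.96% of all genes in either direction. The smallest p there was that of BR6OX2, which makes brassinolide, at 1.08 (adjusted p = 0.163).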

How the data were processed

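Leaf RNA-seq of 9 libraries in 3 groups was analysed. The authors deposited 1 table with counts of total and unique exon reads per gene, not normalized, and RPKM, per the file headers. For XTH genes the RPKM equalled exon reads per kilobase divided by 1 constant per library. Reads were paired and trimmed per the file headers, and the submitters' processing notes name TAIR10 as the build. The aligner and counter are not given in these sources. Nor is any use of strand, so genes that overlap, antisense pairs included, could not be separated. The table's starts count from 0 (27443 of 27444 genes matched the RefSeq annotation of that build after adding 1), and positions are given from 1. The authors deposited exon reads of 28585976 to 45346301 per library, and every sample column was matched to a label.

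Total exon reads were tested with edgeR 4.0.16 in R 4.3.3: filterByExpr (minimum count 10, minimum total 15, minimum share 0.7), TMM scaling, and glmQLFit and glmQLFTest over all 9 libraries without covariates (6 residual degrees of freedom). The SE is the fold change divided by the square root of F. DESeq2 1.42.0 and the other alternatives are given in the closing section. On simulated counts edgeR recovered 44% of 99 genes changed 2-fold and 80% of 100 changed 4-fold in stable-labelled against wild type. Those genes were drawn at random from all tested genes, so these shares do not carry over to members that vary more within groups. XTH4 and XTH25 were not called in that comparison at log2 3.24 (SE 1.52) and 4.32 (SE 1.38). Sequences were read with Python 3.11.15, and coding sequences were aligned with Biopython 1.88.

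All 32 matching rows are accounted for. Statistics are given for called members, filled to 6 by smallest p, and for XTH22. The adjusted p of XTH31 was added in stable-labelled against wild type. From other lists up to 4 called genes are named, or more to spell out a count, with some uncalled genes beside them. Members and lists were chosen with earlier results of these data known, and the TATA box core was added after the others.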

Additional observations from a re-analysis of the deposited data

How the results depend on the processing

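Of the 6 counts below, the values with the largest changes came from the choice of test and of libraries. With DESeq2, 7 members were called in stable-labelled against wild type, 10 in stable-labelled against knockout-labelled and 1 in knockout-labelled against wild type, and 3418, 3641 and 1778 of all genes, where edgeR called 3, 3 and 1 members and 1721, 1351 and 322 genes. With only the compared groups in the fit, 0 members were called in stable-labelled against wild type and 0 in stable-labelled against knockout-labelled, and 615 and 703 of all genes. In knockout-labelled against wild type the 1 called member became 0 with library totals alone, 0 without the filter on low counts and 0 with the replicate block. Unique exon reads called 3, 3 and 1 members, as total reads did.

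Leaving out each library in turn gave 0 to 7 members in stable-labelled against wild type (584 to 3786 of all genes), 0 to 10 in stable-labelled against knockout-labelled (3 to 5241 of all genes) and 0 to 1 in knockout-labelled against wild type (10 to 546 of all genes). The lowest value of all genes in stable-labelled against knockout-labelled, 3, was without knockout-labelled 1, and the highest in each comparison was without stable-labelled 1. The cause was not tested. XTH22 in knockout-labelled against wild type ran from -0.28 without knockout-labelled 3 to 0.63 without knockout-labelled 1, and none of the other 18 member fold changes recomputed under the 15 alternatives changed sign.

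The groups share replicate numbers. For each gene the group mean was subtracted, and libraries were correlated on these deviations, not on their levels. Between same-numbered libraries the correlations ran from -0.435 to 0.273 in stable-labelled against wild type. They ran from -0.257 to 0.516 in stable-labelled against knockout-labelled and from -0.439 to -0.146 in knockout-labelled against wild type. Between differently numbered libraries they ran from -0.374 to 0.542, -0.600 to 0.378 and -0.175 to 0.371, in the same order. Some same-numbered libraries deviated together (0.492 for stable-labelled 1 and knockout-labelled 1, 0.516 for stable-labelled 3 and knockout-labelled 3), but not every pair did in any comparison, so the numbers were not treated as pairs. The replicate block called 4 members and 1537 of all genes in stable-labelled against wild type, 3 and 1232 in stable-labelled against knockout-labelled, and 0 and 134 in knockout-labelled against wild type. Members with few reads, such as XTH10, XTH15 and XTH19, limit what could be detected at this depth.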
